A study of Mus musculus with 12 samples.

Results

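Cells that carried transcripts of Ccr2, Ly6c2 or Plac8 were examined in the brains of mice that had received genetically engineered hematopoietic stem/progenitor cells (HSPCs). A cell barcode was selected in any of the 8 libraries of treated brains when it held at least 200 genes, at most 10% mitochondrial unique molecular identifiers (UMIs, one per captured transcript molecule) and at least 3 summed UMIs of Ccr2, Ly6c2 and Plac8. Barcodes with 20 or more summed UMIs of 6 neutrophil genes (S100a8, S100a9, Retnlg, Lcn2, Camp, Ngp) were left out, as were those with 3 or more of 7 dendritic-cell genes (Flt3, Zbtb46, Cd209a, Xcr1, Ccr7, Clec9a, Itgax). This gave 431 selected cells of 27439 kept cells, or 1.57%. The working label for them was cells with monocyte transcripts. The label was borne out only in part, since 84.2% of the cells met the rule through Ccr2 alone, so they are called selected cells here and are given no cell type name.

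Recipients were busulfan-conditioned C57BL/6J mice that were given lineage-negative HSPCs of male donors, transduced with a lentiviral vector encoding GFP, either into a vein (i.v.) or into the cerebral ventricles (i.c.v.). All recipients, of either route, also received non-transduced total bone marrow by vein later. The study describes the donor animals of this experiment as male, without naming the donors of that marrow separately. The brains of 1 female and 1 male mouse per route were perfused and dissociated, and CD45+ CD11b+ CX3CR1+ cells were sorted into GFP+ microglia-like cells (MLCs) and GFP- endogenous microglia, so each mouse gave a GFP+ and a GFP- library. The GFP- gate can also hold donor cells without GFP, such as progeny of the support marrow. The labels give an age of 22 to 28 weeks, whereas the design text places the brains 12 to 13 months after dosing, and these statements conflict. The comparators, 1 library each of sorted microglia, neurons and astrocytes and of blood, came from 1 naive C57BL/6J animal, given as 8 to 12 weeks old in the labels and as 12 weeks old in the design text.

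CCR2 is the receptor for the chemokine CCL2 and guides monocytes out of the bone marrow and into inflamed tissue. Circulating mouse monocytes are usually divided into classical cells, which carry much Ly6C and CCR2 and enter tissue, and nonclassical cells, which carry little Ly6C, patrol the vessel wall and express Nr4a1, Ace and Treml4. Plac8 is abundant in blood monocytes but also in B cells. CCR2 is also found on conventional dendritic cells and on monocyte-derived macrophages, and these can carry major histocompatibility complex (MHC) class II molecules, which present peptides to helper T cells. Resident microglia stand apart by P2ry12, Tmem119 and Sall1, and macrophages of the meninges and perivascular spaces by Mrc1, Pf4 and Lyve1.

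The kept cells of a treated library held 4970758 to 16514669 UMIs in all. Selected cells were deep, and a rule that asks for 3 UMIs is more easily met in a deep cell. Their median was 9461 UMIs, and the library medians ran from 5790 to 11709.5, against 841 to 3000 in the other cells of the same libraries. The gene tests against other cells were therefore repeated with other cells of matched depth, drawn within deciles of the selected cells' UMIs. Any 2 treated libraries shared 0 to 8 cell barcodes, and no barcode was a selected cell in more than 1 library.

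The share of selected cells was highest in the GFP+ libraries of i.v.-dosed mice, which held 367 of the 431. The GFP+ i.v. female library had 257 of 3344 kept cells, or 7.69% (exact 95% binomial interval 6.80 to 8.64, counting error only, here and below). The GFP+ i.v. male library had 110 of 2266, or 4.85% (4.01 to 5.82). In the GFP+ i.c.v. libraries the share was 0.0763% (2 of 2621, 0.00924 to 0.275) in the female and 0.0848% (3 of 3536, 0.0175 to 0.248) in the male. The GFP- libraries lay between them. Their shares were 0.262% (7 of 2675) in the i.v. female, 0.263% (12 of 4555) in the i.v. male, 0.666% (29 of 4355) in the i.c.v. female and 0.269% (11 of 4087) in the i.c.v. male. Naive microglia held 9 of 1274, or 0.706% (0.324 to 1.34), which overlaps the intervals of the GFP- libraries. Naive neurons had 0 of 575, which allows a share of up to 0.639%, and naive astrocytes 0 of 1146, which allows up to 0.321%.

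**Figure D1:**
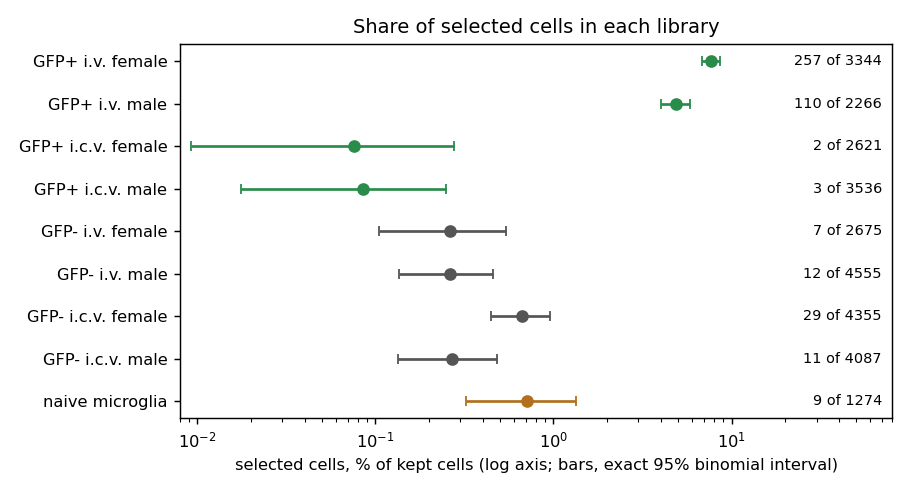
Share of kept cells that met the rule in each treated library and in naive microglia, on a log axis in percent, with exact 95% binomial intervals as bars and the cell numbers at the right. Both GFP+ i.v. libraries lie above 4% and both GFP+ i.c.v. libraries below 0.1%, and the GFP- libraries and naive microglia lie between.

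The GFP+ share was 3.18% ± 3.76 and the GFP- share 0.365% ± 0.201 (SD, n = 4 mice). The difference of 2.81 percentage points did not exceed the spread between libraries in a two-sided exact permutation test over libraries (p = 0.429). Flipping the sign of the difference within each mouse, the paired form of the test, gave an exact p = 0.5. The direction followed the route. GFP+ minus GFP- was +7.42 points in the i.v. female and +4.59 in the i.v. male, but -0.590 in the i.c.v. female and -0.184 in the i.c.v. male. GFP+ cells of i.v.-dosed mice averaged 6.27% ± 2.00 and those of i.c.v.-dosed mice 0.0806% ± 0.00604 (SD, n = 2), a ratio of 77.8. With 2 libraries against 2 an exact permutation test cannot go below p = 0.333, which is the value it gave. Depth moved the shares: after every cell was thinned to 500 UMIs, 13 and 9 cells met the rule in the GFP+ i.v. female and male libraries and 0 or 1 in each of the others. Among cells with at least 5000 UMIs, selected cells made up 17.0% and 13.1% of the GFP+ i.v. female and male libraries, 0.15% and 0.24% of the GFP+ i.c.v. ones and 2.25% to 4.72% of the GFP- ones. Naive microglia were shallow, with a median of 425 UMIs in kept cells. Of their 28 cells at that depth 7 met the rule, or 25% (10.7 to 44.9). This interval overlaps those of the GFP+ i.v. female (15.0 to 19.1) and male (10.7 to 15.8).

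The genes that chose the cells are given as a description, without a test. Ccr2 (chromosome 9, 124101950 to 124113557, GRCm38) had a UMI in 406 of the 431 cells, or 94.2%. Plac8 (chromosome 5, 100553725 to 100572245) was seen in 58 cells, or 13.5%. Ly6c2 (chromosome 15, 75108158 to 75111970), the gene for the antigen that defines classical monocytes, was seen in 33, or 7.66%. Reads of Ly6c2 can be hard to tell from those of its near-identical neighbour Ly6c1, which had at most 4.64 CPM (UMIs scaled to the library's summed UMIs, as counts per 1e6) in the selected cells of any library. Among the selected cells 363 had Ccr2 alone, 23 had all 3 genes, 23 had Plac8 alone, 12 had Ccr2 and Plac8, 8 had Ly6c2 and Ccr2, and 2 had Ly6c2 alone. Cells with 2 or more of the genes numbered 43. All 7 cells of the GFP- i.v. female, 11 of 12 of the GFP- i.v. male, 25 of 29 of the GFP- i.c.v. female and all 5 of the GFP+ i.c.v. libraries had Ccr2 alone. Of the 23 cells with all 3 genes, 21 came from the GFP+ i.v. libraries and 2 from the GFP- i.c.v. male.

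The cells differed by which of these genes they carried, and each set below is described by the CPM of its summed UMIs, without a test. The 23 cells with all 3 genes carried genes of classical monocytes. These had 1897 CPM of S100a4, 460 of Fn1 (fibronectin), 970 of Ms4a4c and 329 of Chil3, against 307, 9.07, 158 and 1.42 CPM in the 363 cells with Ccr2 alone. Of these 23 cells, 95.7% held at least 3 genes of the classical monocyte list and 65.2% at least 3 of the nonclassical list. The 23 cells with Plac8 alone carried the genes of nonclassical monocytes: 589 CPM of Ace (angiotensin-converting enzyme), 487 of Treml4 and 510 of Adgre4, against 0, 1.42 and 5.10 CPM in the Ccr2-only cells. All of them held at least 3 genes of the nonclassical list, and 95.7% also at least 3 of the classical list. They also had little MHC class II, with 173 CPM of H2-Aa and 973 of Cd74.

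The 363 Ccr2-only cells had the reverse pattern, with 14248 CPM of H2-Aa and 32174 of Cd74 but 0 of Ace. In 79.6% of them at least 3 microglia genes were detected, against 43.5% of the cells with all 3 genes and 39.1% of the Plac8-only cells. Mrc1, the mannose receptor, stood at 263 CPM in the Ccr2-only cells and at 35.4 in the cells with all 3 genes. Their Ccl4, which codes for an inflammatory chemokine, stood at 3180 CPM against 17.7. The 12 cells with Ccr2 and Plac8 lay between these sets, with 1284 CPM of S100a4, 86.6 of Ace and 10170 of H2-Aa. The 8 cells with Ly6c2 and Ccr2 had 18355 CPM of H2-Aa and 0 of Fn1 and Ace. The 2 cells with Ly6c2 alone carried Nkg7, a gene of cytotoxic lymphocytes, at 5347 CPM, and both held at least 3 genes of the T or NK cell list. Cd79a and Igkc, defining genes of B cells, had 0 UMIs in all 431 cells. Ighm, also on the B cell list, did have UMIs, in 267 selected cells (61.9%) and in 26.8% of other cells, which were shallower.

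**Figure D2:**
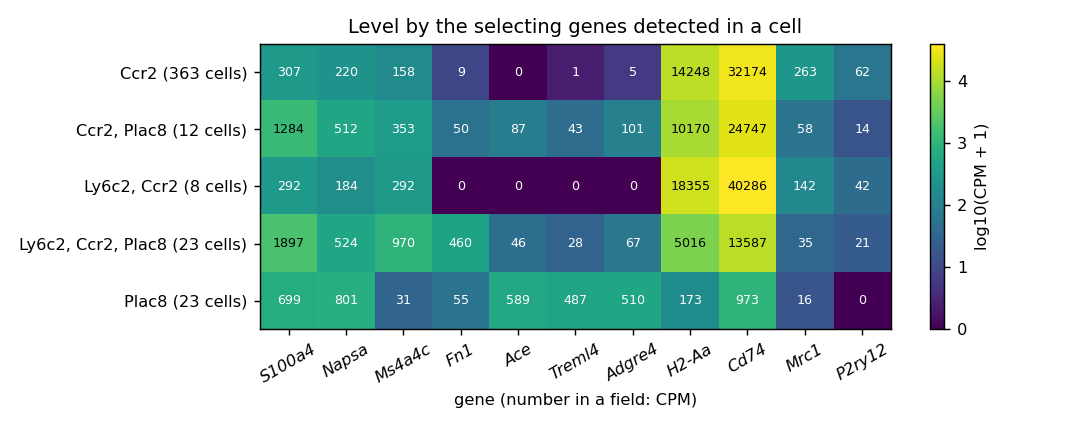
Summed level (CPM, number in each field; colour, log10 of CPM + 1) of 11 genes in selected cells grouped by which of Ly6c2, Ccr2 and Plac8 they carried. The Plac8-only row carries Ace, Treml4 and Adgre4 near 500 CPM and little H2-Aa, and the Ccr2-only row the reverse.

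Values on either side of the rule's limits are given without a test. The 106 cells with 2 summed UMIs, just outside, had 138 CPM of S100a4 and 12699 of H2-Aa, and the 69 cells with 3, just inside, had 255 and 14867. The 57 cells with 4 UMIs had 174 and 14287. With 5 or more UMIs (305 cells) S100a4 stood at 534 and H2-Aa at 12685 CPM. At the dendritic limit, 73 selected cells with 2 dendritic genes had 837 CPM of S100a4 and 511 of Napsa, and the 79 cells that were left out with 3 or more had 904 and 716. H2-Aa was at 13719 CPM in the former and 13955 in the latter. No cell had 10 to 19 neutrophil UMIs.

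Selected cells were compared with the other cells of the same library in the 3 libraries with at least 20 of them (GFP+ i.v. female, GFP+ i.v. male and GFP- i.c.v. female), by edgeR's quasi-likelihood test on UMIs summed per library, with library as a block. Genes of the rule were part of the fit and of the p-value adjustment, over 10770 genes, but are left out of the counts. Of 10755 genes, 3403 (31.6%) passed an adjusted p of 0.05, 1724 (16%) higher and 1679 (15.6%) lower in selected cells. Against other cells of matched depth 1594 of 8774 genes passed (18.2%), 782 higher (8.91%) and 812 lower (9.25%). Both fits called 1515 genes in the same direction, and none in opposite directions. The median log2 difference over all genes was -0.08, or -0.02 at matched depth. A difference is the log2 of selected over other cells, given ± its standard error, and its adjusted p is over all genes tested.

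Of the 5 marker genes named for these cells, S100a4 and Napsa were not part of the rule. The gene lists that hold both were chosen with earlier results of these data known. S100a4 (chromosome 3, 90603771 to 90606045) codes for a calcium-binding protein of motile cells. It stood at 465 CPM in selected cells of the GFP+ i.v. female, 530 in the GFP+ i.v. male, 183 in the GFP- i.c.v. female, 583 in the GFP- i.v. female, 144 in the GFP- i.v. male and 352 in the GFP- i.c.v. male. Other cells of these libraries had 106, 129, 10.3, 22.4, 6.38 and 10.4 CPM. Every library with 5 or more selected cells had more in its selected than in its other cells, and the difference was 2.81 ± 0.25 (edgeR adjusted p = 6.1e-08) and 1.57 at matched depth. Without the library block its call was lost (2.58). A UMI of S100a4 was seen in 180 selected cells, or 41.8%, in 1.11% of other cells and in 11.2% of those of matched depth. Shares of cells with a UMI pool the libraries where no library is named.

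Napsa (chromosome 7, 44572380 to 44586862), an aspartic protease, stood at 277, 283, 209, 173, 103 and 248 CPM in selected cells of the same libraries in the same order, and at 89.7, 101, 11.6, 26.1, 7.47 and 13.4 in other cells. The groups did not overlap (2.40 ± 0.29, edgeR adjusted p = 2.5e-06; 1.08 at matched depth). The GFP+ i.v. libraries had the highest level in other cells for both genes. The 5 selected cells of the GFP+ i.c.v. libraries had 0 UMIs of either.

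Of 11 classical monocyte genes tested, 7 were higher in selected cells, 1 was lower and 3 did not pass, with a median of 1.75. The markers S100a4 and Napsa, described above, are on this list and counted among the 7. S100a6 rose by 2.04 ± 0.15, Ms4a4c by 1.82 ± 0.16, Ifitm6 by 1.75 ± 0.18 and Fn1 by 3.61 ± 0.44 (edgeR adjusted p = 2.7e-06 for Fn1). Fn1 was seen in 32 selected cells and had 0 UMIs in those of the GFP- i.c.v. female. Mgst1, a glutathione transferase, was lower (-0.71 ± 0.18), but its sign turned in the GFP- libraries alone (0.084). It also turned with the neutrophil and the dendritic exclusion lifted together (0.77). The defining gene Chil3 did not pass, and averaged 14.5 CPM in selected and 37.2 in other cells. These means rested on few cells, since Chil3 was seen in 12 selected cells (2.78%) and 25 other cells (0.0926%). All 10 nonclassical monocyte genes were higher, also at matched depth, with a median of 1.89. Ace (chromosome 11, 105967945 to 105989964) stood at 25.3, 25.2 and 21.3 CPM in the selected cells of the 3 libraries and at 3.04, 1.64 and 0.381 in other cells (3.96 ± 0.43). Treml4 rose by 3.84 ± 0.56, Adgre4 by 3.76 ± 0.40, Spn by 3.17 ± 0.28 and Nr4a1 by 0.98 ± 0.15. These levels rested on few cells, with Ace in 25 and Treml4 in 30 selected cells.

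The MHC class II genes were higher in selected than in other cells of every library, though not in every kind of selected cell, since the Plac8-only cells had little, and not relative to the cells left out by the dendritic limit. All 8 genes of the list were higher, also at matched depth, with a median of 2.50. Their summed level was 45596 to 74600 CPM in the selected cells of all 8 libraries. In the other cells it was 20599 and 22407 CPM in the GFP+ i.v. libraries and 1229 to 5508 elsewhere. H2-Aa (chromosome 17, 34282744 to 34287823), an MHC class II chain, stood at 13142, 13696, 11503, 13284, 11269 and 11974 CPM in the 6 libraries in the order used above, and at 3929, 4378, 858, 786, 538 and 1081 in other cells. Selected and other cells did not overlap, and the 6 levels in selected cells were close to each other whatever the sort or the route (2.65 ± 0.27, edgeR adjusted p = 2.7e-07; 1.85 at matched depth). Cd74, the invariant chain that occupies the peptide groove before loading, rose by 2.70 ± 0.25 and had a UMI in 97.2% of selected cells, 32.4% of other cells and 64.7% of those of matched depth. Ciita, the transactivator of the class II genes, rose by 2.34 ± 0.23, and H2-DMb1 and H2-DMa, which form the peptide exchanger, by 2.10 ± 0.16 and 1.26 ± 0.14.

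Class II promoters share a set of boxes that CIITA acts on, of which the Y box is bound by NF-Y at an inverted CCAAT. To look for this box, the 150 bases before the RefSeq transcription start (GRCm38.p6) of the class II genes were searched for GATTGG on either strand. The letters were found in 4 of 6 such windows, of 5 genes with an entry, and in 10.9% of all 32851 promoters (3595) of the table. The windows without a match were those of H2-DMa, which was also higher in selected cells. Entries for H2-Ab1 and Ciita were missing, and Cd74 was not looked up. A match is a description of the letters only. The windows of 2 genes follow 5′ to 3′ on the gene's strand, with the matches in capitals.
H2-Aa (chr17:34287824-34287973, minus strand): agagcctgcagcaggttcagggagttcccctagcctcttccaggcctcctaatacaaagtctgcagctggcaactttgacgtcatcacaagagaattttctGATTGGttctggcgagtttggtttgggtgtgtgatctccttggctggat
H2-Eb1 (chr17:34305717-34305866, plus strand): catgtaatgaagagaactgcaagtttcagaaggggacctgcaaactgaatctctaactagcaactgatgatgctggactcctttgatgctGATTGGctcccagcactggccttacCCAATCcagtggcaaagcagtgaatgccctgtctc
The window of H2-Eb1 holds the motif once on each strand, and that of H2-Aa once. H2-Eb1 differed between selected and other cells by 2.71 ± 0.26 and H2-Aa by 2.65 ± 0.27 on the log2 scale.

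**Figure D3:**
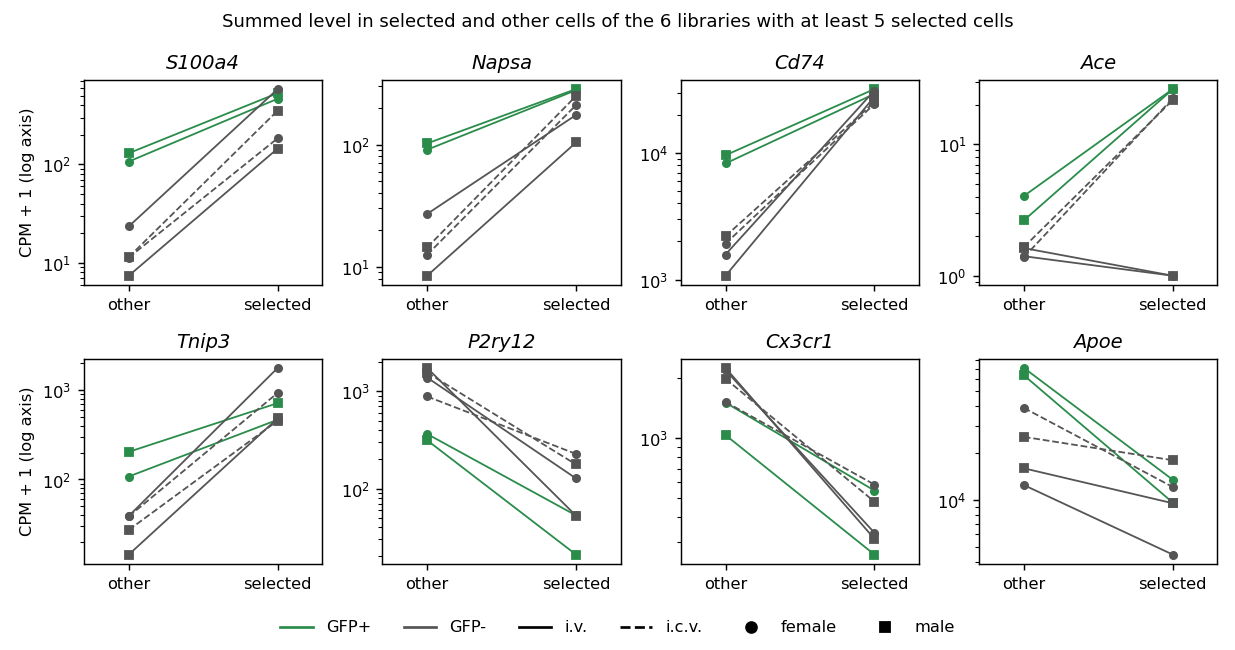
Level of 8 genes (CPM + 1, log axis) in other and in selected cells, with a line for each of the 6 libraries with at least 5 selected cells. S100a4, Napsa, Cd74 and Tnip3 rise along every line and P2ry12, Cx3cr1 and Apoe fall, while Ace rises in 4 libraries and was at 0 CPM in selected cells of the other two.

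All 12 microglia genes were lower in selected cells, also at matched depth, with a median of -2.29. P2ry12 (chromosome 3, 59216272 to 59262871), the purinergic receptor of resting microglia, stood at 51.8, 19.9, 226, 126, 51.5 and 176 CPM in selected and at 364, 313, 886, 1389, 1745 and 1562 CPM in other cells (-2.55 ± 0.23, edgeR adjusted p = 8.5e-08). The groups did not overlap, but P2ry12 was not absent: 126 selected cells, or 29.2%, held a UMI, against 58.1% of other cells and 68.2% of those of matched depth. Tmem119 differed by -2.44 ± 0.17, Sall1, a transcription factor of microglial identity, by -2.82 ± 0.37, and Fcrls by -2.91 ± 0.23. Cx3cr1, the fractalkine receptor on which the cells were sorted, differed least of the 12, by -1.32 ± 0.14, and was seen in 81.2% of selected cells and 88.6% of other cells of matched depth.

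Of 10 genes of CNS-associated macrophages 9 were lower (7 of 9 at matched depth), with a median of -2.42. Ms4a7 differed by -2.07 ± 0.15 and Stab1, a scavenger receptor, by -2.77 ± 0.18. Lyve1 and Cd209f had 0 UMIs in the selected cells of the 3 libraries, where other cells had at least 7.21-fold and at least 40.2-fold more, taking 3 counts over the group as the floor. Mrc1 was lower by a small amount (-0.63 ± 0.17), but the call was lost at matched depth, and in the GFP- libraries alone the sign turned (0.33). Genes of disease-associated microglia were divided, with 2 higher, 5 lower and 3 not called of 10. Apoe, a lipid carrier, averaged 11738 CPM in selected and 57875 in other cells (-1.97 ± 0.15, and -2.18 at matched depth), while Gpnmb and Cst7 differed by -5.78 ± 0.45 and -3.56 ± 0.33. Among complement genes C1qa (-0.89 ± 0.13) and C1qb (-0.40 ± 0.12) were lower and Cfp, the gene for properdin, was higher (1.88 ± 0.19). In all 2 of 11 complement genes were higher and 5 lower. Over all genes tested 16% were higher and 15.6% lower, so the numbers of higher genes in both lists are near the overall share.

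**Figure D4:**
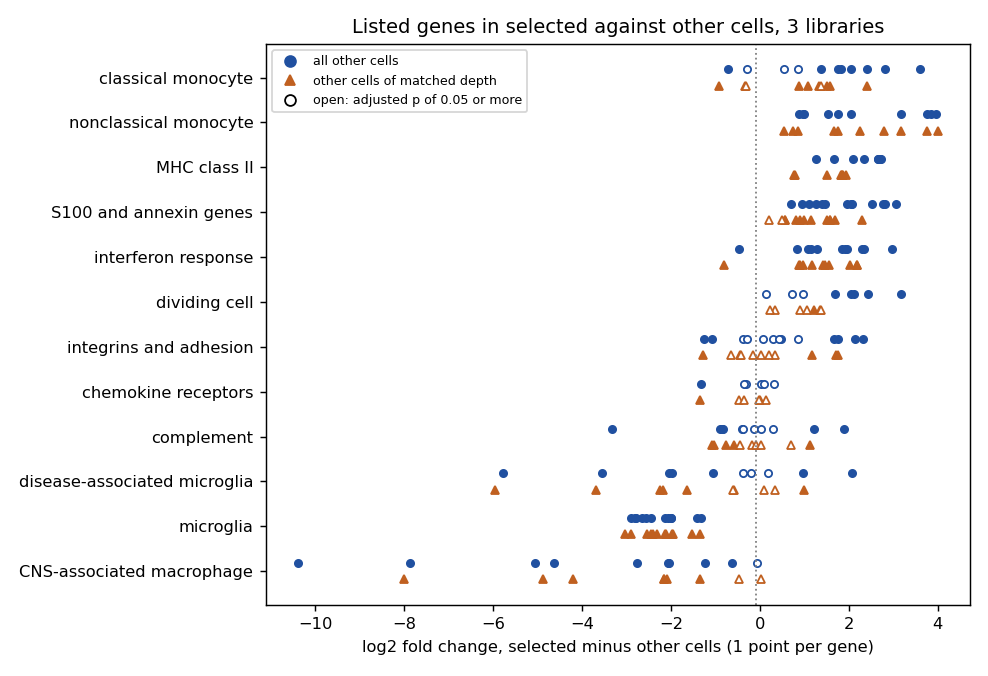
Log2 difference between selected and other cells of 3 libraries for the genes of 12 lists, with 1 point per gene; circles use all other cells, triangles other cells of matched depth, and open symbols did not pass. The dotted line is the median of all genes (-0.08). Nonclassical monocyte, MHC class II and S100 and annexin genes lie to the right of it, and microglia genes to the left; the leftmost points, Lyve1 and Cd209f, had 0 UMIs in selected cells and their place depends on the prior count.

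Outside these lists the largest differences upward belonged to Retnla, Ear2, Clec4b1, Sirpb1c, Ahnak, Tnip3, Gda, Ifit1, Id3, Ccl9, Emilin2 and Emb, with log2 values of 9.03 to 2.83. Retnla (chromosome 16, 48842551 to 48844461), a secreted resistin-like protein of alternatively activated macrophages, had the largest value, but only 12 selected cells held its 710 UMIs, and 1 cell held 290 of them, or 40.8%. Tnip3 (chromosome 6, 65525313 to 65634040), an inhibitor of NF-kB signalling, was spread more widely, with a UMI in 239 selected cells, or 55.5%, and in 2.58% of other cells. It stood at 466, 717, 934, 1781, 484 and 455 CPM in selected and at 107, 203, 37.5, 37.9, 13.4 and 26.2 in other cells (3.05 ± 0.33, edgeR adjusted p = 7.0e-07; 2.26 at matched depth). In these 6 libraries all levels in selected cells exceeded all levels in other cells. Clec4b1, a C-type lectin, was seen in 58.9% of selected and 1.31% of other cells (3.58 ± 0.27, and 2.43 at matched depth). Ear2, an eosinophil-associated ribonuclease also found in monocytes, was seen in 15.5% of selected cells (4.17 ± 0.20, and 3.40 at matched depth). These percentages of cells pool the treated libraries. Other cells were shallower, and a smaller part of them came from the GFP+ i.v. libraries.

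In the other direction stood, among others, Ltf, Ccl8, Igf1, Syngr1, Vcam1, Whrn, Slc40a1, Ttr, Cp, Serpine2 and Sox4, with values of -7.15 to -3.87. Ltf is a neutrophil granule gene, and its value was 9.15 with the neutrophil and the dendritic exclusion lifted together, so its place depends on the exclusions. Ccl8, a chemokine of tissue macrophages, averaged 0.790 CPM in selected and 93.2 in other cells (-6.61 ± 0.36), and 3 selected cells held a UMI. Igf1, the growth factor of glia and macrophages, averaged 2.12 against 84.0 CPM (-4.74 ± 0.29). Vcam1, an adhesion molecule, averaged 20.4 against 391 CPM (-4.46 ± 0.25). Slc40a1, the iron exporter ferroportin, was lower by the same order (-4.24 ± 0.24). Ttr, a transcript of the choroid plexus that can reach other cells as free RNA, averaged 36.4 and 1227 CPM.

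All 13 S100 and annexin genes and their partners passed, and 11 at matched depth, with a median of 1.96. S100a4, described above, is counted among them. Ahnak, a scaffold of the membrane skeleton, differed by 3.05 ± 0.24 and Vim, the intermediate filament vimentin, by 2.51 ± 0.22. S100a10 differed by 2.75 ± 0.26 and Lgals3 by 2.07 ± 0.20. Of 13 integrin and adhesion genes 5 were higher and 2 lower, where 16% and 15.6% of all genes were. Among them were Cd44, the hyaluronan receptor (2.31 ± 0.17), Itgb7 (2.14 ± 0.32) and Itgal (1.75 ± 0.21) upward and Itgb5 downward (-1.26 ± 0.14). Of 11 interferon-response genes 10 were higher, with a median of 1.83: Irf7 differed by 2.29 ± 0.16, Isg15 by 1.83 ± 0.16 and Ifit1 by 2.98 ± 0.41. The exception was Bst2 (-0.48 ± 0.15), whose sign turned when all 6 libraries with at least 5 selected cells were used (0.25).

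Ccl2, the main CCR2 ligand, was higher at 332 against 209 CPM, and Ccl4 differed by 1.62 ± 0.16, but Ccl4 turned to -0.38 in the GFP- libraries alone, and Ccl12 was lower (-1.07 ± 0.34, not called at matched depth). Of 6 chemokine receptors outside the rule only Cx3cr1 passed, downward, which is near the share of all genes that were lower (15.6%). Among 20 transcription factors of monocytes and macrophages 7 were higher and 9 lower, where 16% and 15.6% of all genes were. Id3 (2.89 ± 0.21) and Cebpb (0.98 ± 0.13) were higher, and Maf (-1.90 ± 0.18) and Irf8 (-0.92 ± 0.18) lower. Genes of dividing cells were higher in 5 of 8 cases, 2 of 7 at matched depth, and Mki67, a marker of cycling, had a UMI in 32 selected cells (7.42%) in 0.840% of other cells and in 3.66% of those of matched depth. Immediate-early genes, which also respond to dissociation, were higher in 8 of 11 cases and lower in 1, with a median of 0.65, and their part in the result was not tested.

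Markers of other cell types were mostly at or near 0 in selected cells, though Ighm of the B cell list was seen in 61.9% of them. No gene of the neuron, erythroid, or basophil and mast cell lists was abundant enough to be tested. Of T or NK cell genes 2 of 4 tested were higher. One of them, Nkg7, rested on the 2 cells named above, and Cd3e had 1 UMI in all selected cells. Of 3 B cell genes 1 was lower and none higher. Among astrocyte genes 1 of 5 was lower, and among endothelial genes 1 of 4 was higher. Among oligodendrocyte genes 1 of 4 was higher and 2 lower. Over all genes 16% were higher and 15.6% lower, so 1 call in a list this short says little about the list. Plasmacytoid dendritic genes were lower in 2 of 3 cases. Neutrophil genes outside the rule were lower in 7 of 8, which the rule fixes. Dendritic genes outside the rule were higher in 5 of 7 cases and lower in 1, but at matched depth in 2 cases each. Batf3 (1.51 ± 0.17) was higher and Fscn1 (-3.45 ± 0.39), a gene of mature dendritic cells, lower. The rule's dendritic limit left dendritic-gene cells among the other cells, so it partly shaped these values too.

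A further comparison was with the cells that the dendritic limit removed. Cells with 3 or more of the 7 dendritic genes numbered 79, of which 47 and 28 came from the GFP+ i.v. female and male libraries and 4 from the GFP- i.v. female. Selected cells were compared with them in the GFP+ i.v. libraries, in 6899 genes (edgeR, 1 residual degree of freedom). In all 672 genes (9.74%) passed, 345 (5%) higher in selected cells and 327 (4.74%) lower. Of 10 complement genes tested 6 were higher in selected cells and 1 lower, and of 5 genes of CNS-associated macrophages 4 were higher. MHC class II genes gave no gene higher and 1 lower of 8, with H2-Aa at 13419 and 13945 CPM (-0.09 ± 0.05, edgeR adjusted p = 0.346). C1qa, a chain of complement C1q, averaged 2831 CPM in selected and 285 in dendritic-gene cells (3.32 on the log2 scale), Ccl12 308 and 7.22 (5.37 ± 0.30), Pf4 differed by 4.76 ± 0.48, Ccl7 by 3.76 ± 0.44 and Apoe by 2.77. Retnla and Thbs1 had 0 UMIs in the dendritic-gene cells, so that the summed level in selected cells was at least 75.5-fold and at least 26.6-fold higher. Few cells carried these sums. Retnla was seen in 12 and Thbs1 in 37 of the 431 selected cells, and 10 cells held 97.6% and 77.0% of their UMIs. DESeq2 called neither (adjusted p = 0.510 and 0.871). Lower were Tbc1d4, Wnt11, Ccl22, Pclaf and P2ry10, of which Ccl22, a chemokine of dendritic cells, differed by -3.57 ± 0.33. The marker Napsa was lower as well, at 280 against 709 CPM (-1.37), and S100a4 differed by -0.90, so neither was highest in the selected cells. Without the library block 1 gene passed, and DESeq2 called 143.

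Whether the difference between selected and other cells depended on the sort was tested as an interaction, and here the sort and the route cannot be told apart, since 2 GFP+ i.v. libraries stood against 1 GFP- i.c.v. library. Of 10755 genes 42 (0.391%) passed by edgeR, 6 with a higher selected-minus-other value in GFP+ (0.0558%) and 36 with a lower one (0.335%). With the 6 libraries of at least 5 selected cells it was 246 of 10086 (2.44%), 95 higher (0.942%) and 151 lower (1.5%). Thbs1, which codes for thrombospondin, was at 28.2 and 127 CPM in selected cells of the GFP+ i.v. libraries against 9.40 and 38.1 in other cells, and at 25.6 against 70.9 in the GFP- i.c.v. female. Its interaction was 3.20 ± 0.44, but -1.44 without the exclusions of neutrophil-gene and dendritic-gene cells, and with the 6 libraries the call was lost (0.52, edgeR adjusted p = 0.602). The interaction was also positive for Ccl3 (1.11 ± 0.16), and for Sgk1 (1.64 ± 0.28) and Malat1 (0.61 ± 0.06), which were lower in selected than in other cells of all 3 libraries, by less in GFP+. It was negative for Crybb1 (-4.63 ± 0.79), Itgb7 (-3.70 ± 0.49), Hist1h1b (-2.64 ± 0.43), Tnip3 (-2.61 ± 0.21) and Avpi1 (-2.58 ± 0.44). Crybb1, a crystallin gene of microglia, was lower in selected cells of all 3 libraries, by more in GFP+, and the other 4 genes were higher in selected cells, by less in GFP+. Tnip3 had 466 and 717 CPM in selected and 107 and 203 in other cells of the GFP+ i.v. libraries, against 934 and 37.5 in the GFP- i.c.v. female, so both kinds of cell differed. For Itgb7 and Ccl3 it was mainly the other cells that differed. In the same order of libraries, Itgb7 stood at 80.1, 87.9 and 89.6 CPM in selected and at 26.4, 36.3 and 2.41 in other cells. Ccl3 stood at 1156, 1179 and 1113 CPM in selected and at 547, 647 and 1180 in other cells.

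Selected cells themselves were compared between GFP+ and GFP- in i.v.-dosed mice, where each library held at least 5. No gene of 2547 passed (0%) by edgeR's quasi-likelihood test, 97 had an unadjusted p under 0.05, and DESeq2 called 1. Blocking on the mouse raised this to 5 genes by edgeR, namely Cxcl10, Xist, Retnla, Rgs1 and Tnf. Xist stood at 4.64 and 0 CPM in the GFP+ selected cells of the female and the male and at 189 and 206 CPM in the GFP- ones (-5.96 ± 0.99 without the block, edgeR adjusted p = 0.698). GFP- selected cells of i.v.- and i.c.v.-dosed mice likewise gave no call (0%) by edgeR, with 155 genes at an unadjusted p under 0.05 and none by DESeq2. With 7 to 29 selected cells in each GFP- library, even 2-fold differences were seldom detectable at this depth. In simulated counts the test of GFP+ against GFP- recovered 4.5% of 2-fold and 80% of 4-fold changes. The test of i.v. against i.c.v. recovered 0% and 66%. The 5 selected GFP+ cells of i.c.v.-dosed mice were too few for a comparison by route.

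Sex-linked transcripts and the vector were read in single cells, since the donors are described as male. In the GFP+ i.v. female, a UMI of Ddx3y, Eif2s3y, Kdm5d or Uty (Y-linked genes) was seen in 176 of 257 selected cells, or 68.5%, in 49.0% of other cells and in 66.3% of those of matched depth. Xist, the RNA that silences the second X chromosome of female cells, was seen in 2 of 257 (0.778%), in 3.37% of other cells and in 3.89% of those of matched depth. In the GFP+ i.v. male, Y-linked UMIs were seen in 86 of 110 selected cells (78.2%) and in 81.8% of other cells of matched depth, and Xist in 0 of 110, which allows a share of up to 2.73%. EGFP, the vector's transcript, was seen in 16.3% and 16.4% of selected cells of these libraries, and in 15.8% and 14.1% of other cells of matched depth. None of the 59 selected cells of GFP- libraries held an EGFP UMI.

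Among GFP- libraries the picture varied by mouse. In the i.c.v. female, 27 of 29 selected cells held Xist (93.1%, interval 77.2 to 99.2) and 0 of 29 a Y-linked UMI, which allows up to 11.9%. The other cells of matched depth had Xist in 88.5%. In the i.v. female, 3 of 7 selected cells held Y-linked UMIs, against 1.54% of other cells and 7.14% of those of matched depth, and 2 of 7 held Xist, against 87.7% and 85.7%. In the male mice Xist appeared in selected cells: 4 of 12 in the i.v. male (33.3%), against 0.374% of other cells and 0 of 24 of matched depth, and 5 of 11 in the i.c.v. male (45.5%), against 2.99% and 7.27%. Y-linked UMIs were in 6 of 12 and 7 of 11 of the same cells, and 1 and 2 cells held both. Where the cells came from was not tested.

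**Figure D5:**
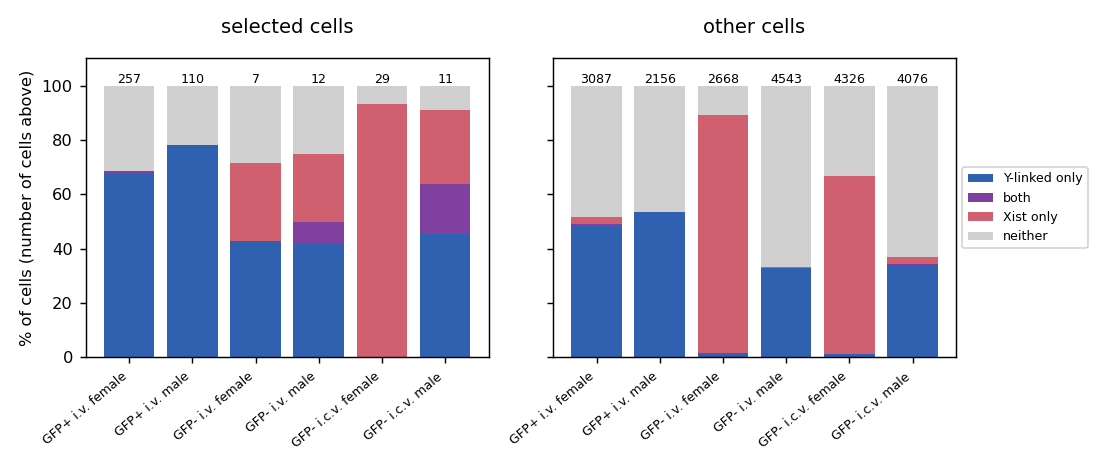
Percent of selected (left) and other (right) cells with Y-linked UMIs only, Xist only, both or neither in 6 libraries, with the number of cells above each bar. In the GFP- i.c.v. female the selected cells carry Xist and no Y-linked UMI, and in both GFP- male libraries a part of the selected cells carries Xist while few other cells do.

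The 9 cells of naive microglia that met the rule are given as values of 1 library, with exact Poisson intervals for counting error. Cd74 stood at 28914 CPM (27703 to 30165), H2-Aa at 11792 (11023 to 12601), S100a4 at 1187 (952 to 1463) and Napsa at 378 (251 to 546). P2ry12 stood at 148 CPM (74.1 to 266). All 9 cells held Ccr2, 1 held Ly6c2 and none Plac8. The class II level was within the range of the treated libraries' selected cells, and S100a4 was above it.

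In naive blood, also 1 library, 200 of 341 kept cells met the rule (58.7%), 181 of them with Plac8, 96 with Ccr2 and 64 with Ly6c2. B cells were among them, with Cd79a in 84 cells and at least 3 B cell genes in 45.0%, so blood is no pure monocyte reference. Of the 200 cells, 88 carried 2 or more of the selecting genes, against 43 of the 431 brain cells. Levels are given as the mean of the GFP+ i.v. libraries' selected cells against blood with its exact Poisson interval. Toward brain, Ccl12 stood at 308 CPM against 0 UMIs, where a floor of 3 counts would be 1.73 CPM. C1qa stood at 2831 against 223 CPM (202 to 247), Apoe at 11548 against 1281 (1228 to 1335) and H2-Aa at 13419 against 3069 (2988 to 3153). Toward blood stood monocyte genes outside the rule such as Fn1, at 40.6 against 1249 CPM (1197 to 1303). Ace was at 25.3 against 179 CPM (160 to 201) and S100a4 at 497 against 1221 (1170 to 1274). The genes that chose the cells in both tissues are a description only, since the rule shaped their levels. Ly6c2 was at 105 against 345 CPM (318 to 373) and Ccr2 at 734 against 588 (552 to 625). Plac8, also abundant in B cells, was at 278 against 1673 (1612 to 1735). Of 1627 genes at 100 CPM or more in either, 160 were at least 2-fold higher in the brain cells and 298 at least 2-fold lower. Beside Ccl12, the genes with the largest ratios toward brain in every library were Basp1, Mmp12, Cxcl16, Spp1, Tnfsf9, Pmepa1 and Tnf, and those toward blood were Igkc, Cd79a, Iglc2, Ly6d, Ms4a1, Ebf1, Iglc3 and Cd2, most of them B cell genes. Sort and tissue differ between these libraries, and no test was made.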

How the data were processed

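Single-cell 3' libraries (10x Genomics) were made from sorted brain cells of treated mice and from naive mice. The deposited files hold raw UMI counts per gene and cell barcode, made by the authors with Cell Ranger (3.1.0 per the file headers; build mm10); whether the barcode lists had been filtered further is not given in the sources used here. Gene positions come from GENCODE (GRCm38). No doublet caller was run, and doublets were left in.

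Kept barcodes had 200 or more genes, and mitochondrial UMIs of no more than 10%. UMIs of selected and of other cells were summed per library and tested by edgeR 4.0.16 (quasi-likelihood, TMM, filterByExpr; R 4.3.3) with Benjamini-Hochberg adjustment over all genes, at 0.05, in libraries with at least 20 selected cells. DESeq2 1.42.0 was an alternative. Levels are CPM of summed UMIs. Other cells of matched depth were drawn within 10 UMI bins of the selected cells. The scripts were tested on simulated data. Shares were compared by exact permutation (scipy 1.17.1), with exact binomial intervals, which cover counting error only. PCR duplicates are collapsed by UMIs.

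GFP+ and GFP- libraries of the same number came from the same mouse, so the numbers pair the samples. With 1 mouse per sex and route, route and mouse are only replicated across the sexes. The comparison of GFP+ with GFP- selected cells over both routes could not be fitted with 20 cells per library, and libraries with at least 5 selected cells of i.v.-dosed mice were used, a choice made after the cell numbers were seen. The members and the gene lists were chosen with earlier results of these data known. Genes were named from the lists, and by the largest called differences whose higher group reached 50 CPM and whose direction held in each library (12 in each direction against other cells, 5 for the interaction and the dendritic-gene cells), or 100 CPM for blood (8 in each direction). Some genes that this rule names are not reported here. Alternatives used other normalization, filters, thinning, thresholds and left-out libraries.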

Additional observations from a re-analysis of the deposited data

Results flagged for a closer look

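Among the 4 GFP- libraries the i.c.v. female stood apart in its share of selected cells, at 0.666%, with a gap to the next library of 0.982 of the group's range. Of 4 such groups of libraries examined, chance would flag about 1 in 20. The GFP+ minus GFP- difference in the share had opposite signs in the mice of the 2 routes: +7.42 and +4.59 points in the i.v. female and male, and -0.590 and -0.184 points in the i.c.v. female and male. The routes differed by 6.39 points in this value, with a two-sided exact permutation p = 0.333, the smallest that 2 mice against 2 can give. For 42 genes the difference between selected and other cells depended on the sort by edgeR, with the sort confounded with the route, and Tnip3, Thbs1 and Itgb7 were among them.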

How the results depend on the processing

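The difference in the share of selected cells was 0.170 to 3.72 points over the alternatives across all mice and 1.31 to 3.84 when 1 library was left out. It was 6.01 in i.v. mice alone and turned to -0.387 in i.c.v. mice alone. The mouse as a replicate block (exact sign flip, p = 0.5) cannot reach 0.05 with 4 mice, so it could not show whether the result depends on the block. The number of genes called between selected and other cells was 2027 by DESeq2, 714 after thinning to 500 UMIs, 1594 at matched depth, 1682 with no replicate block, and 1813 to 3289 with 1 library left out, lowest without the GFP+ i.v. male (without the GFP+ i.v. female, 2217). In alternatives chosen after seeing the data it was 1183 with at least 5 selected cells and matched depth, and 2168 in GFP- libraries alone (at least 5 selected cells), where 41.6% of calls were upward against 50.7%. Of 1345 recomputed values of 73 genes, 1286 kept direction and call, 51 lost the call (S100a4, Nr4a1, Sall1 and Itgb7 without the block, Fn1 and Apoe by DESeq2, among others) and 8 reversed: Mgst1 (0.084), Mrc1 (0.33), Bst2 (0.76) and Ccl4 (-0.38) in GFP- libraries alone, Bst2 (0.25) with at least 5 selected cells, Ccl4 (-0.047) with that and matched depth, and Ltf (9.15) and Mgst1 (0.77) without the exclusions. The cause was not tested.

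The 42 genes that depended on the sort became 127 (upper quartile), 164 (no filter), 106 (all barcodes), 6 (thinned), 108 (no exclusions), 65 (matched depth), 2 (no replicate block) and, added after seeing the data, 246 (at least 5 selected cells). Thbs1 reversed without the exclusions (-1.44) and Crybb1 after thinning (1.49). GFP+ against GFP- selected cells gave 1 call by DESeq2, 25 without a filter, 157 without the deepest 5% of cells, 5 with the mouse as a replicate block, and 0 to 1 with 1 library left out. I.v. against i.c.v. in GFP- gave 36, 118 and 6 without a filter, without the deepest 5% and without the exclusions, and 0 with any library left out. The 672 genes against dendritic-gene cells became 143 (DESeq2), 102 (thinned) and 1 (no replicate block). In the GFP- i.v. female the share of selected cells with Y-linked UMIs was 0% after thinning (0 of 7, interval 0 to 41.0). That with Xist was 0% without the deepest 5%, but of 2 cells only (interval 0 to 84.2). In the GFP- i.c.v. female Xist was in 37.9% after thinning (11 of 29, interval 20.7 to 57.7). It was in 100% of cells with at least 2 of the 3 genes, which was 1 of 1 cell (interval 2.5 to 100). Not run, for want of cells or residual degrees of freedom, were gene tests with at least 2 of the 3 genes, GFP- libraries alone at 20 cells, leave-one-out fits of the interaction and of the dendritic comparison, the interaction with at least 5 UMIs or without the deepest 5%, the dendritic comparison without the deepest 5%, and i.v. against i.c.v. in GFP+.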
